A study of Mus musculus with 6 samples.

Results

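Nascent transcription of 7 genes of the RAS, RAF and MAP kinase cascade was compared between proliferating Ctrl and Kmt5b sKO muscle stem cells (MuSCs). The genes are the RAS GTPases Hras and Nras, the RAF kinases Araf and Braf, the MEK kinases Map2k1 and Map2k2, and the ERK kinase Mapk3. They were taken as a list of gene names, with no threshold on any value, and are 7 of the 14546 genes in the deposited table. The measurements are PRO-seq values, which locate engaged RNA polymerases through labelled nascent RNA, from 3 Ctrl and 3 Kmt5b sKO libraries. Ctrl MuSCs carried the genotype labelled Pax7CreERT/Suv4-20h1WT and Kmt5b sKO MuSCs that labelled Pax7CreERT/Suv4-20h1KO, where Suv4-20h1 is another name of Kmt5b, a methyltransferase of histone H4 lysine 20. Both groups therefore carried the tamoxifen-inducible Cre driven from Pax7, a gene of muscle stem cells, so recombination depends on Pax7 activity and cells that escaped it are counted with the others. Per the study's methods the cells were purified from limb and trunk muscle with magnetic beads and grown in culture; the age of the animals is not given in the labels. Values are listed below in the order of replicates 1 to 3 of each group, and n is 3 libraries per group throughout.

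In this cascade a growth factor receptor loads a RAS protein with GTP, RAS-GTP recruits a RAF kinase to the membrane, RAF phosphorylates MEK, and MEK phosphorylates ERK. Active ERK phosphorylates kinases and transcription factors, and the target genes that follow include phosphatases and Sprouty proteins that dampen the cascade. In muscle stem cells the cascade is best known for carrying the proliferative signal of fibroblast growth factors, which also delays differentiation. As a PRO-seq value reports transcription, it says nothing of whether a kinase is active.

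Each gene has 2 deposited values per library. The first covers the TSS region, the initial 400 nt of the listed transcript, in RPM, which counts reads against a fixed library total. The other covers the gene body, from there to the transcript end, in TPM (per length and scaled to a fixed total). The pausing index divides the TSS value by that of the body, so a high index means that polymerases were concentrated near the start. The depth was recovered from the size of 1 read in each library. It ran from 926904 to 3246052 reads over the TSS regions of all listed genes and from 7425419 to 16249143 over their bodies. Kmt5b itself had between 30.6 and 42.6 TPM in its gene body over the 6 libraries (log2 change 0.14, adjusted p = 0.71 from limma), so its transcription does not check the genotype labels. The myoblast markers fitted the labelled cell type: Myod1 had between 855 and 1328 TPM and Pax7 between 25.5 and 53.7 TPM in the gene body. The differentiation markers (Myog, Mymk, Myh3, Ckm, Tnnt3 and Acta1) summed to 2242, 2831 and 1344 TPM in Ctrl against 3109, 2994 and 3949 TPM in Kmt5b sKO MuSCs, so the Kmt5b sKO libraries lay above all Ctrl libraries. The fibroblast markers Pdgfra, Col1a1 and Ly6a summed to between 4.98 and 17.5 TPM in Ctrl libraries and between 11.9 and 12.9 TPM in Kmt5b sKO libraries. The endothelial markers Pecam1, Cdh5 and Tek were low, but their sum separated the groups. It ran from 2.50 to 4.23 TPM in Ctrl libraries and from 4.38 to 5.05 TPM in Kmt5b sKO libraries. Pecam1 and Cdh5 were higher in each Kmt5b sKO library than in any Ctrl library, while Tek overlapped between the groups. Among all genes tested outside X and Y, 21.4% had gene body values that did not overlap between the groups. Of the leukocyte markers, Itgam had 0.65 TPM or less and Cd68 between 214 and 402 TPM, while Ptprc, Csf1r and Lyz2 are not in the deposited table. Nor are the fibroblast markers Dcn and Lum or the endothelial markers Kdr and Tie1. The part of other cell types in the values below was not tested. Mature fibre markers summed to between 101 and 269 TPM in Ctrl libraries and between 249 and 540 TPM in Kmt5b sKO libraries. As these are bulk samples, fewer transcribing cells and less transcription per cell cannot be told apart.

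The genes differ widely in the length over which their bodies were counted. On GRCm38, Hras lies on the minus strand at chr7:141190926-141194005 and has a gene body of 2679 nt, while Nras lies on the plus strand at chr3:103058285-103067914 with 9229 nt. Araf lies on the plus strand at chrX:20848543-20860519 and is the single X-linked gene of the 7, with a body of 11576 nt. Braf, on the minus strand at chr6:39603237-39725463, has the longest body with 121826 nt, of which 7.69% is exonic. Map2k1, on the minus strand at chr9:64185770-64253631, has 67461 nt, and Map2k2, on the plus strand at chr10:81105915-81124697, has 18382 nt. Mapk3, on the plus strand at chr7:126760597-126765819, has 4822 nt. The TSS region of Map2k1 lies entirely in exon 1, while that of Nras holds 156 exonic and 244 intronic nt and that of Araf 77 exonic and 323 intronic nt. For 6 genes the listed transcript begins at the most upstream protein-coding start of GENCODE M21. The exception is Mapk3, whose listed transcript begins 996 nt downstream of the start of the most upstream protein-coding isoform, so that its TSS region lies inside the gene and holds none of the initiation site of that transcript.

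The sequence before the start sites is shown for 4 genes, as these are the windows from which polymerases enter the TSS regions compared here. Nras and Map2k2 had the most TSS signal of the 7 genes, while Hras and Braf were the lowest of those whose listed start is the most upstream one. Each window is the 250 bases before the RefSeq start site on GRCm38.p6, written 5' to 3' on the strand of the gene: Nras at chr3:103058035-103058284 (plus), Map2k2 at chr10:81105665-81105914 (plus), Hras at chr7:141194005-141194254 (minus) and Braf at chr6:39725464-39725713 (minus). Capitals mark the letters GGGCGG, or CCGCCC on the other strand, and CCAAT, or ATTGG on the other strand.
Nras: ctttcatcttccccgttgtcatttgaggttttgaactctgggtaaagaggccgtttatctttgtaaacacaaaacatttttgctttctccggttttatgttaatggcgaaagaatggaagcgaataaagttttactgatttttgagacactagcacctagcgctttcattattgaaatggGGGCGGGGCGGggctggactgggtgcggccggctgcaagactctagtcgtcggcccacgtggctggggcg
Map2k2: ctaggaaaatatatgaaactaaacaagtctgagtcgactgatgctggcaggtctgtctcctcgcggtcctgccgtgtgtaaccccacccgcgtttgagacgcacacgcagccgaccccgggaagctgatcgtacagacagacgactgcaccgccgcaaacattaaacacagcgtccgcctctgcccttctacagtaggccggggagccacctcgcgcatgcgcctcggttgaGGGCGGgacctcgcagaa
Hras: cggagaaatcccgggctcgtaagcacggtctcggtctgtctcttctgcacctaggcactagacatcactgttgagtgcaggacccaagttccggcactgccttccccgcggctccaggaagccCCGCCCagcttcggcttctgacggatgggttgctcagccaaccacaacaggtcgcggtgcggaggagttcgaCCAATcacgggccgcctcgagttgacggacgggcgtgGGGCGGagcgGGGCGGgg
Braf: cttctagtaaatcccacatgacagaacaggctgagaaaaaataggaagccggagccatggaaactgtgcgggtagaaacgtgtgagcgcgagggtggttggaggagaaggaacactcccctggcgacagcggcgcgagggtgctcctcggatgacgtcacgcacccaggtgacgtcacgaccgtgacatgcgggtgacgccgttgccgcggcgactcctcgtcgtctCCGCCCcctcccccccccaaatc

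All 4 windows hold GGGCGG on at least 1 strand, as 2 matches that overlap by 1 base in Nras, 1 match in Map2k2, 3 on both strands together in Hras and 1 in Braf. None of the 4 holds TATAAA or ACTTCCGG on either strand. Of the 6 genes with a RefSeq promoter sequence, Araf (0 matches) is the one without GGGCGG and instead holds CCAAT 3 times, while Map2k1 holds 4 matches of GGGCGG and 2 of CCAAT. Among the 32851 RefSeq promoters of this length, 32.7% hold GGGCGG, 33.8% CCAAT, 12.4% TATAAA and 2.88% ACTTCCGG. The 6 windows hold between 12 CpG (Araf) and 24 CpG (Hras, Braf and Map2k1), against a median of 6 over all promoters. The number of CpG did not separate high from low TSS signal, as Hras and Braf hold 24 and Nras holds 14. The letters are a description of the windows and show no binding.

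**Figure D1:**
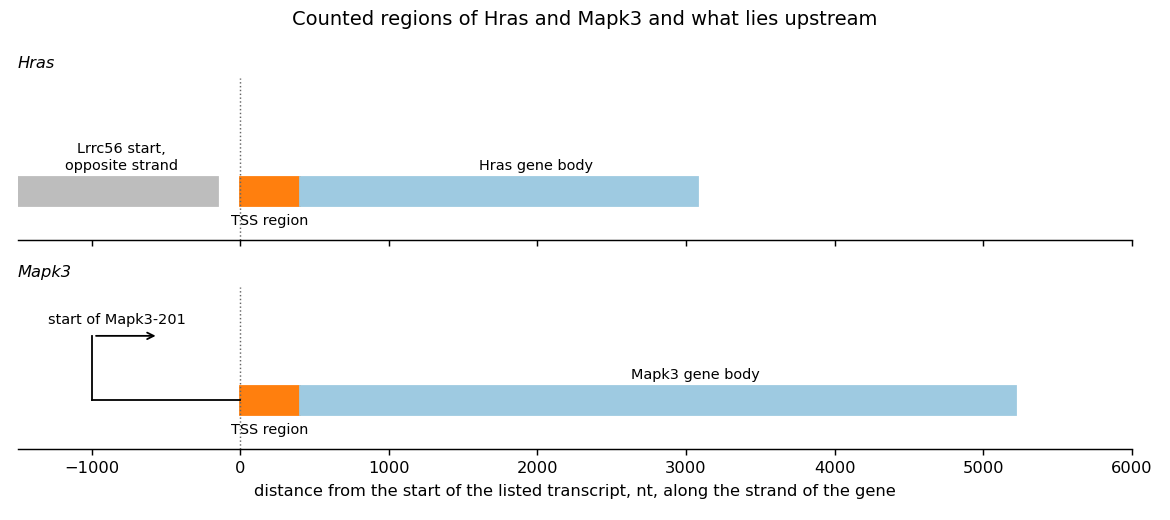
Map of the regions counted for Hras and Mapk3, drawn to scale along the strand of each gene, with distance from the listed start in nt. Orange boxes are the 400 nt TSS regions, blue boxes the gene bodies and the grey box the neighbour of Hras; Lrrc56 starts 151 nt away from Hras on the opposite strand, and the most upstream Mapk3 isoform starts 996 nt before the listed start.

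Some of the 7 genes share their ground with a gene of the opposite strand, which the authors' counting left out. Lrrc56 starts 151 nt from Hras and runs away from it. Syn1 overlaps the end of Araf by 9 nt, Ndufb2 overlaps the end of Braf by 146 nt, and Uchl4 lies within Map2k1.

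Transcription through the gene bodies followed the order Nras, Map2k2, Araf, Hras, Map2k1, Mapk3 and Braf. Nras had a mean of 75.8 TPM over the 6 libraries, above 93.6% of the 12451 genes tested, and Braf had 11.5 TPM, above 38.4% of them. Over all tested genes the median was 15.8 TPM with quartiles of 7.09 and 30.03 TPM, and 4 of the 7 genes (Nras, Map2k2, Araf and Hras) lay above the upper quartile. Nras exceeded Map2k2 in 6 of 6 libraries, Map2k2 exceeded Araf in 6 of 6, Map2k1 exceeded Mapk3 in 6 of 6 and Mapk3 exceeded Braf in 6 of 6. Araf and Hras were in this order in 5 of 6 libraries and Hras and Map2k1 in 4 of 6, so these neighbours did not differ beyond their spread. Among paralogs, Nras was thus the more transcribed RAS gene of the pair, Araf the more transcribed RAF gene and Map2k2 the more transcribed MEK gene.

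**Figure D2:**
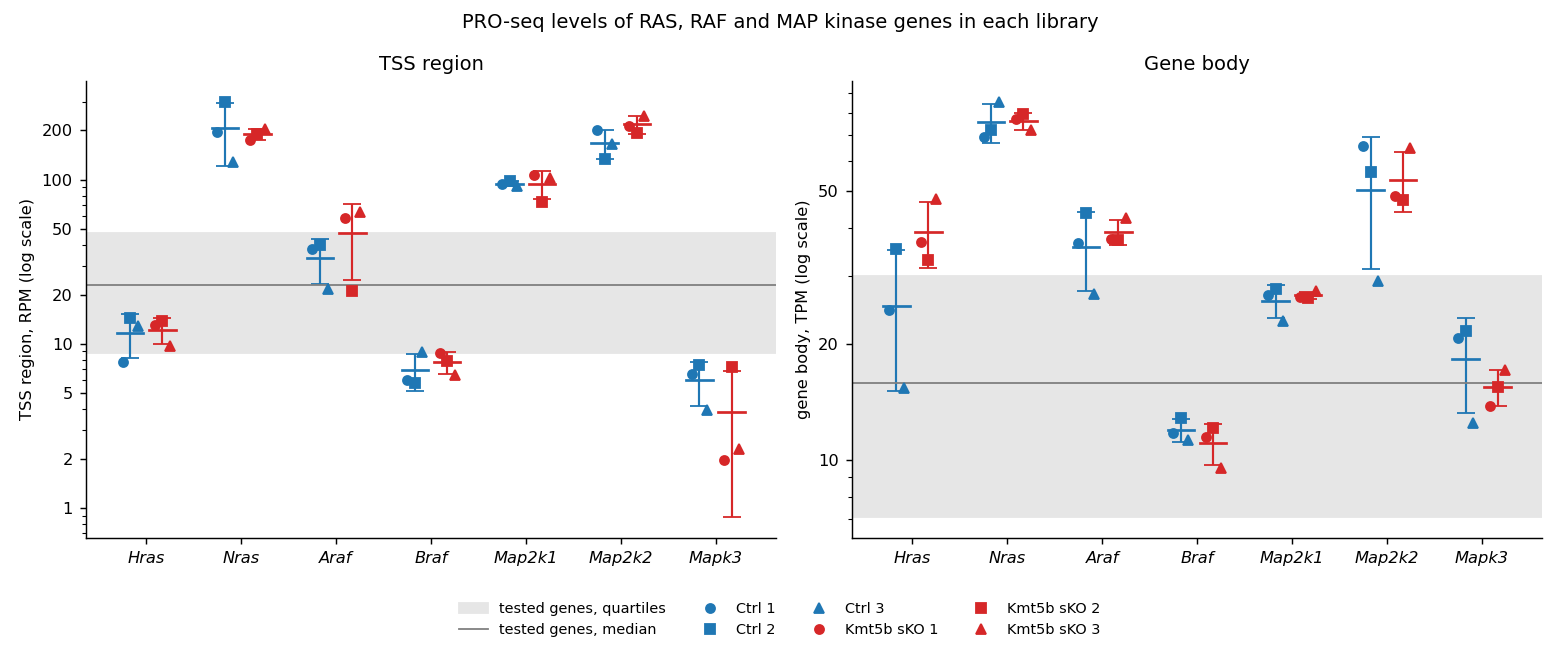
PRO-seq values of the 7 genes in each library, with the TSS region in RPM on the left and the gene body in TPM on the right, both on log axes. Points are libraries (blue Ctrl, red Kmt5b sKO), bars are group means with SD, the grey band spans the quartiles of the tested genes and the line their median; the groups overlap for 7 of 7 genes in both panels, and Mapk3 and Braf are the lowest in both.

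The order differed in the TSS region, where Nras and Map2k2 shared the top. Nras averaged 199 RPM and Map2k2 193 RPM, above 97.5% and 97.4% of the tested genes, and Nras was the higher in only 1 of 6 libraries, so they did not differ beyond their spread. Map2k1 came next with 94.5 RPM and Araf with 40.5 RPM. Hras averaged 11.9 RPM, Braf 7.32 RPM and Mapk3 4.92 RPM, all below the 23.0 RPM of the median tested gene in every library. Neighbours in the order from Map2k2 to Hras were separate in 6 of 6 libraries, and Hras exceeded Braf in 6 of 6, while Braf exceeded Mapk3 in 4 of 6. The low values rest on few reads: between 5 and 27 for Mapk3, between 10 and 47 for Braf and between 21 and 68 for Hras, against between 289 and 812 for Nras. Counting error alone was 44.7% of the value of Mapk3 and 31.6% of that of Braf in the library with the fewest reads.

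The RAS genes stood apart in how their signal was distributed. Hras, a small GTPase of the plasma membrane, had 24.5, 35.4 and 15.4 TPM in the gene body of Ctrl against 36.9, 33.1 and 47.7 TPM in that of Kmt5b sKO MuSCs. The highest value was in Kmt5b sKO replicate 3 and the lowest in Ctrl replicate 3, and the groups overlapped through Ctrl replicate 2. The means were 25.1 ± 10.01 and 39.2 ± 7.61 TPM (SD, n = 3), a log2 change of 0.69 (SE 0.29, 95% interval 0.0051 to 1.38). With an adjusted p of 0.31 from limma this did not pass the threshold of 0.1, although it was the largest gene body difference among the 7 genes. When Ctrl replicate 3 was left out the log2 change was 0.39, and over all alternatives with limma, edgeR and DESeq2 the adjusted p ran from 0.14 to 0.65. In the TSS region Hras had 7.75, 14.4 and 12.9 RPM in Ctrl against 13.1, 13.9 and 9.66 RPM in Kmt5b sKO MuSCs. These means of 11.7 ± 3.47 and 12.2 ± 2.24 RPM (SD, n = 3) differed by less than the spread of either group (log2 change 0.09, adjusted p = 0.96 from limma).

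Hras body values lined up with the differentiation markers. From low to high, Hras ran through Ctrl replicate 3, Ctrl replicate 1, Kmt5b sKO replicate 2, Ctrl replicate 2, Kmt5b sKO replicate 1 and Kmt5b sKO replicate 3, which is the order of the summed markers given above except that Ctrl replicate 2 and Kmt5b sKO replicate 2 trade places. The part of differentiation in the Hras values was not tested. The genes with the pattern most like it, by Pearson's r of log2 gene body values over 6 libraries among 10467 genes with a mean of at least 5 TPM, were Myo18b (r = 0.998), which encodes a sarcomere myosin, Fhod3 (r = 0.997), which encodes a sarcomere formin, and Slc31a2 (r = 0.995), which encodes a copper transporter. Myo18b had 20.3, 29.5 and 12.5 TPM in Ctrl against 29.7, 28.3 and 41.0 TPM in Kmt5b sKO MuSCs. These are the best matches out of a large search over few libraries, and their r is given as a description.

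Nras, a paralog of Hras, had 69.0, 72.2 and 85.4 TPM in the body of Ctrl against 76.8, 79.6 and 72.0 TPM in that of Kmt5b sKO MuSCs. The libraries were within 1.24-fold of each other, and the groups overlapped. The means of 75.5 ± 8.70 and 76.1 ± 3.83 TPM (SD, n = 3) gave a log2 change of 0.02 with a 95% interval from -0.29 to 0.32 (adjusted p = 0.98 from limma). Its TSS region had 197, 299 and 128 RPM in Ctrl against 174, 191 and 204 RPM in Kmt5b sKO MuSCs. The 3 Kmt5b sKO values all lay between the lowest and the highest Ctrl value, with a log2 change of -0.05 (95% interval -0.59 to 0.49, adjusted p = 0.97 from limma). Ctrl replicate 3 was the highest library for the Nras body and the lowest for its TSS region.

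The RAF genes, kinases that RAS-GTP recruits, are of very unequal length and level. Braf had 11.7, 12.8 and 11.3 TPM in the gene body of Ctrl against 11.5, 12.1 and 9.54 TPM in that of Kmt5b sKO MuSCs, from between 966 and 2090 reads per library. The groups overlapped, and the log2 change was -0.11 (95% interval -0.46 to 0.23, adjusted p = 0.79 from limma). Its TSS region had 6.05, 5.75 and 8.90 RPM in Ctrl against 8.85, 7.92 and 6.44 RPM in Kmt5b sKO MuSCs (log2 change 0.17, adjusted p = 0.93 from limma). Here Ctrl replicate 3 and Kmt5b sKO replicate 1 were about equally high. Araf was compared in the fit that kept genes on X and Y. It had 36.7, 43.8 and 27.1 TPM in Ctrl against 37.5, 37.3 and 42.7 TPM in Kmt5b sKO gene bodies (log2 change 0.15, 95% interval -0.29 to 0.59, adjusted p = 0.77 from limma). Ctrl replicate 3 was again the lowest library and Ctrl replicate 2 the highest.

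The Araf TSS region was scattered over a 3.004-fold range. It had 38.01, 40.2 and 21.6 RPM in Ctrl against 58.4, 21.1 and 63.5 RPM in Kmt5b sKO MuSCs, so that 2 Kmt5b sKO libraries were the highest of the 6 and the other was the lowest. The log2 change was 0.41 (95% interval -0.32 to 1.14, adjusted p = 0.76 from limma), and it was 0.91 without Kmt5b sKO replicate 2 and 0.13 without Kmt5b sKO replicate 3. The Y-linked genes Ddx3y, Uty, Kdm5d and Eif2s3y summed to 0.62, 0.20 and 24.1 TPM in Ctrl against 40.3, 42.4 and 2.28 TPM in Kmt5b sKO gene bodies, so both groups mixed libraries with and without Y-linked transcription. Among the 3 libraries with high Y-linked sums, Araf had 21.6 RPM in Ctrl replicate 3, 58.4 RPM in Kmt5b sKO replicate 1 and 21.1 RPM in Kmt5b sKO replicate 2. The part of sex in the X-linked values was not tested.

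The MEK genes encode the kinases that phosphorylate ERK, and they include the steadiest gene of the 7. Map2k1 had 26.8, 27.8 and 23.0 TPM in the gene body of Ctrl against 26.5, 26.4 and 27.5 TPM in that of Kmt5b sKO MuSCs, within 1.21-fold of each other. The log2 change was 0.05 (95% interval -0.24 to 0.35, adjusted p = 0.90 from limma), the narrowest interval of the gene bodies. Its TSS region had 94.9, 97.7 and 91.5 RPM in Ctrl against 107, 73.3 and 103 RPM in Kmt5b sKO MuSCs (log2 change -0.02, adjusted p = 0.98 from limma). The Ctrl libraries were tight there, and the spread came from Kmt5b sKO replicate 2. Map2k2 had 65.5, 55.9 and 29.2 TPM in Ctrl against 48.6, 47.5 and 64.6 TPM in Kmt5b sKO gene bodies (log2 change 0.16, 95% interval -0.54 to 0.85, adjusted p = 0.86 from limma). Ctrl replicate 3 was far below the other libraries, and without it the log2 change was -0.19.

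In the TSS region Map2k2 came closest to a difference. It had 202, 134 and 166 RPM in Ctrl against 214, 193 and 246 RPM in Kmt5b sKO MuSCs, and the groups overlapped because Ctrl replicate 1 exceeded Kmt5b sKO replicate 2. The means were 167 ± 34.3 and 218 ± 26.3 RPM (SD, n = 3), a log2 change of 0.39 (SE 0.22, 95% interval -0.07 to 0.85). The adjusted p was 0.56 from limma, the lowest of the 7 genes in the TSS region.

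Mapk3, which encodes ERK1, had 20.7, 21.7 and 12.5 TPM in the gene body of Ctrl against 13.8, 15.5 and 17.2 TPM in that of Kmt5b sKO MuSCs. Ctrl replicate 3 was the lowest of all and the other Ctrl libraries the highest, so the Kmt5b sKO values lay inside the Ctrl range. The log2 change was -0.20 (95% interval -0.72 to 0.33, adjusted p = 0.75 from limma) and -0.44 when Ctrl replicate 3 was left out. The region counted as its TSS region, inside the gene as described above, had 6.54, 7.47 and 3.98 RPM in Ctrl against 1.97, 7.26 and 2.30 RPM in Kmt5b sKO MuSCs. From 27, 13 and 21 reads in Ctrl and 6, 11 and 5 reads in Kmt5b sKO libraries, the log2 change was -0.74 with the widest interval of the 7 genes, -1.82 to 0.33 (adjusted p = 0.67 from limma). When Kmt5b sKO replicate 2, the highest of its group, was left out, the log2 change was -1.26 (adjusted p = 0.39 from limma).

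The cascade genes as a group showed no called difference. Of the 7 genes, 0 passed an adjusted p of 0.1 in the TSS region, where 1.66% of all 12451 tested genes outside X and Y passed (1.63% with X and Y kept). An unadjusted p under 0.05 in limma's fit was found there for 0 of 7, against 1369 of the 12451. In the gene body 0 passed, against 2.99% of all genes (2.95% with X and Y kept). There 1 of 7, Hras, had an unadjusted p under 0.05 in limma's fit, as did 1981 of the 12451. For the pausing index 0 passed, as did 0.0% of the 11698 genes with an index (0.0% with X and Y kept), while 452 genes had an unadjusted p under 0.05. Groups that did not overlap were found for 0 of 7 genes in each measure, against 15.6% of all genes at the TSS, 21.4% in the body and 9.02% for the index. With edgeR or DESeq2 on the recovered reads, 0 of 7 genes passed in either region as well, and the index was not fitted with them. Among the 12451 genes outside X and Y, 279 passed with edgeR at the TSS and 748 in the body. With DESeq2 these numbers were 295 and 1295, so 0 of 7 is no separate evidence of stability. The median log2 change of the 7 genes was 0.09 at the TSS, beside 0.08 over all tested genes, and 0.05 in the body, beside 0.02. With so few genes and libraries, a share near these backgrounds is not a result about the cascade, and the intervals bound the differences more usefully: in the gene body they excluded a log2 change of 0.5 in either direction for Nras, Braf and Map2k1 but not for the other 4 genes.

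**Figure D3:**
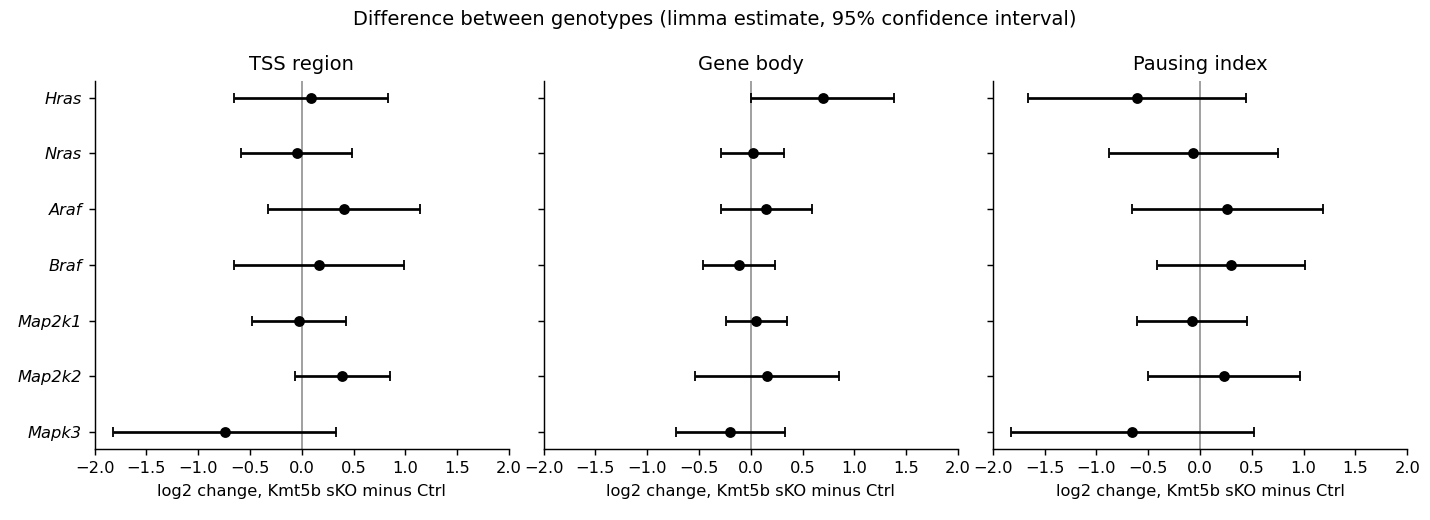
Log2 change between Kmt5b sKO and Ctrl MuSCs for the 7 genes in the TSS region, the gene body and the pausing index, as limma estimates (points) with 95% confidence intervals (bars); the vertical line is 0. The interval spans 0 for 7, 6 and 7 genes, and the Hras gene body is the exception with 0.0051 to 1.38.

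Ratios within a library do not depend on how it was scaled, and they were computed for the 3 paralog pairs. Hras over Nras was 0.355, 0.491 and 0.180 in Ctrl against 0.481, 0.415 and 0.663 in Kmt5b sKO gene bodies, a difference of 0.69 on the log2 scale (two-sided exact permutation test, p = 0.3, adjusted over 3 ratios 0.75). Nras thus had the higher level in each library, by less in Kmt5b sKO replicate 3 than in any other. Araf over Braf was 3.13, 3.41 and 2.40 in Ctrl against 3.27, 3.08 and 4.47 in Kmt5b sKO MuSCs, a difference of 0.27 (exact permutation test, p = 0.5, adjusted 0.75). Map2k1 over Map2k2 was 0.410, 0.497 and 0.788 in Ctrl against 0.544, 0.555 and 0.426 in Kmt5b sKO MuSCs (exact permutation test, p = 0.9, adjusted 0.9). The smallest p that 3 libraries against 3 allow is 0.1, so this test cannot reach 0.05. In 3 of 3 pairs the paralog with the higher level was the same in all 6 libraries, and the size of the ratio varied most for Hras over Nras.

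The pausing index differed widely among the 7 genes. Map2k2, Map2k1 and Nras had mean indices of 3.91, 3.60 and 2.66, above 87.2%, 84.7% and 73.9% of the 11698 genes with an index, whose median was 1.59. Araf had 1.06, Braf 0.642, Hras 0.422 and Mapk3 0.287, and these 4 genes were below the median gene in every library. The lowest of them lay above 4.71% of genes in the case of Mapk3 and 8.48% in that of Hras. The Mapk3 index uses a region 996 nt inside the gene and 5 to 27 reads per library. It therefore does not describe the start of the most upstream Mapk3 isoform. In reads per nt without any scaling, the density in the TSS region was between 9.15 and 52.5 times that of the body for Map2k2 and between 13.4 and 36.7 times for Map2k1. For Hras it was between 1.15 and 7.72 times and for Mapk3 between 0.763 and 2.94 times, beside a median gene between 5.63 and 14.3. Among paralogs the pairs differed: both MEK genes were high, both RAF genes were below the median, and the RAS pair was split, with Nras over Hras in each library.

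**Figure D4:**
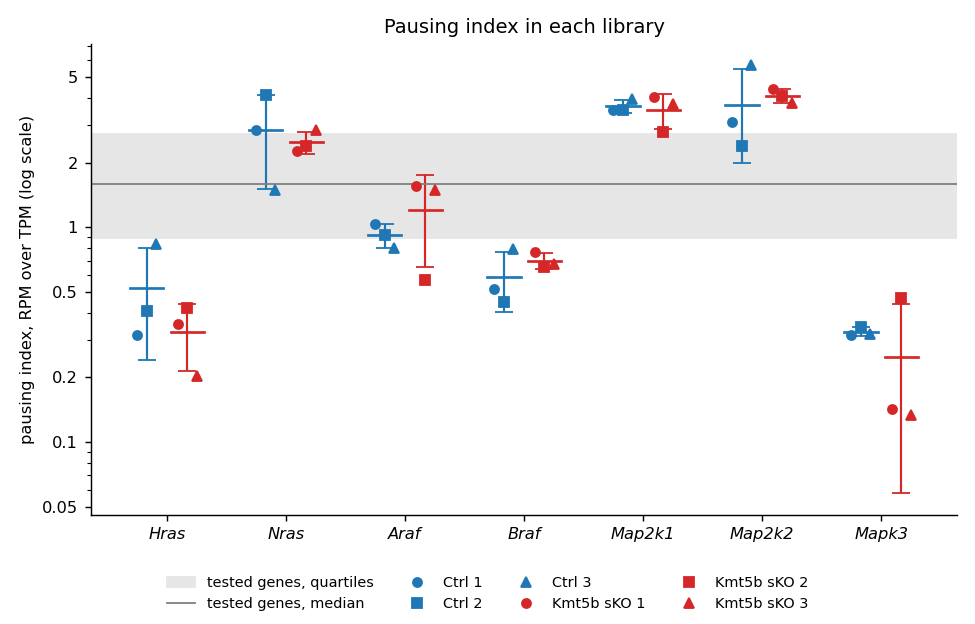
Pausing index (TSS region RPM over gene body TPM, log axis) of the 7 genes in each library, with group means and SD as bars, and the quartiles (band) and median (line) of the tested genes. Map2k1 and Map2k2 lie above the median line in every library, and Hras, Araf, Braf and Mapk3 lie below it in every library.

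Between genotypes the index did not pass the test for any of the 7 genes, with an adjusted p of 0.9997 from limma in each case. Hras had 0.316, 0.406 and 0.836 in Ctrl against 0.355, 0.420 and 0.202 in Kmt5b sKO MuSCs, a log2 change of -0.61 with a 95% interval from -1.66 to 0.44. Ctrl replicate 3, with the lowest Hras body value, had the highest index, and the log2 change was -0.20 when it was left out. Mapk3 had 0.316, 0.345 and 0.319 in Ctrl against 0.143, 0.468 and 0.134 in Kmt5b sKO MuSCs (log2 change -0.65, 95% interval -1.83 to 0.52), so Kmt5b sKO replicate 2 lay on the other side of Ctrl from the other two, and the log2 change was -1.24 when it was left out. Map2k1 was the steadiest, with 3.54, 3.51 and 3.97 in Ctrl against 4.04, 2.78 and 3.75 in Kmt5b sKO MuSCs (log2 change -0.08, 95% interval -0.61 to 0.45). Map2k2 had 3.09, 2.39 and 5.68 in Ctrl against 4.40, 4.07 and 3.81 in Kmt5b sKO MuSCs (log2 change 0.23), and the Kmt5b sKO values lay within the Ctrl range. Nras had 2.85, 4.14 and 1.498 in Ctrl against 2.27, 2.40 and 2.83 in Kmt5b sKO MuSCs (log2 change -0.07), again within the Ctrl range. Araf had 1.04, 0.918 and 0.797 in Ctrl against 1.56, 0.566 and 1.49 in Kmt5b sKO MuSCs (log2 change 0.26), where Kmt5b sKO replicate 2 was the lowest library. Braf had 0.516, 0.448 and 0.790 in Ctrl against 0.772, 0.654 and 0.675 in Kmt5b sKO MuSCs (log2 change 0.30), and Ctrl replicate 3 was the highest.

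The gene body of 5 of the 7 genes (Hras, Araf, Map2k1, Map2k2 and Mapk3) was lowest in Ctrl replicate 3, and that of Nras was highest there. Over all tested genes, the median deviation of Ctrl replicate 3 from the mean of the 6 libraries was -0.17 on the log2 scale for gene bodies under 5000 nt and -0.07 for those over 60000 nt. Hras and Mapk3 are in the shorter class and Map2k1 and Braf in the longer. When Ctrl replicate 3 was left out, the gene body log2 change was -0.04 for Araf, -0.03 for Map2k1, 0.11 for Nras and -0.15 for Braf, beside the values without it given above for Hras, Map2k2 and Mapk3.

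The genes around the cascade were read from 7 lists with 85 different genes, of which 82 were tested in both regions (Rasgrp3, Rasgrf1 and Map2k6 were not). In the TSS region 1 of the 82 passed as higher in Kmt5b sKO MuSCs and 0 as lower (1.22%, near the 1.66% over all genes), and in the gene body 2 passed as higher and 0 as lower (2.44%, near the 2.99%). The 12 genes commonly used as a readout of ERK had gene body log2 changes above 0 in 12 of 12 cases, with a median of 0.37 beside 0.02 over all genes. In limma's fit to all 6 libraries 0 of them passed in the gene body, nor did any with edgeR. With DESeq2 Dusp6, Epha4, Phlda1, Spry2 and Spry4 passed there, among 1295 of all 12451 genes. Without Ctrl replicate 3 Dusp4, Dusp6, Phlda1, Spry2 and Spry4 passed with limma, among 836. In the TSS region the median of the 12 readout genes was 0.42 beside 0.08, with 10 of 12 above 0, and Spry4 passed in limma's fit to all 6 libraries. The 10 dual-specificity phosphatases, which remove phosphate from MAP kinases, had 9 of 10 gene body changes above 0 with a median of 0.36, and Dusp2 passed. Both lists hold Dusp4 and Dusp6. The other lists had gene body medians between -0.07 and 0.07.

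Spry4, a Sprouty inhibitor of the cascade, rose in the TSS region from 34.9, 49.99 and 40.7 RPM in Ctrl to 66.9, 86.5 and 82.3 RPM in Kmt5b sKO MuSCs (log2 change 0.91, adjusted p = 0.073 from limma). The groups did not overlap there, nor in its gene body, where the log2 change of 1.002 had an adjusted p of 0.12 from limma. Dusp2, a phosphatase of the nucleus, rose in the gene body from 82.8, 100 and 149 TPM to 199, 255 and 290 TPM (log2 change 1.19, adjusted p = 0.082 from limma). Cnksr1, a scaffold that binds RAF, rose from 2.40, 0.79 and 1.90 TPM to 4.52, 5.37 and 6.84 TPM (log2 change 1.53, adjusted p = 0.086 from limma), at levels well under the median gene. Dusp6, the ERK-specific phosphatase of the cytoplasm, had 23.8, 39.9 and 59.2 TPM in Ctrl against 74.2, 101 and 83.4 TPM in Kmt5b sKO MuSCs and did not pass (log2 change 1.15, adjusted p = 0.14 from limma). All 3 calls were lost when Ctrl replicate 1 or any Kmt5b sKO library was left out. In those fits 0 of all 12451 genes passed in the gene body and between 1 and 132 in the TSS region. Without Ctrl replicate 2, Dusp2 and Cnksr1 did not pass either (adjusted p = 0.14 and 0.1005 from limma). In that fit 261 of the 12451 genes passed in the gene body, and Spry4 still passed in the TSS region (adjusted p = 0.038 from limma). Over all alternatives with limma, edgeR and DESeq2 the adjusted p of Spry4 ran from 0.038 to 0.35. For Dusp2 it ran from 0.0029 to 0.26 and for Cnksr1 from 0.0064 to 0.28. When Ctrl replicate 3 was left out, 12 of the 82 list genes passed in the gene body, among 836 of all 12451 genes. The summed differentiation markers given above were higher in each Kmt5b sKO library than in any Ctrl library, although single markers such as Myog overlapped between the groups. Within Ctrl the orders differed: the marker sum was lowest in replicate 3, where the Dusp2 and Dusp6 gene bodies were highest. The Spry4 TSS region was highest in Ctrl replicate 2 and the Cnksr1 gene body in Ctrl replicate 1. The part of differentiation in these values was not tested.

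**Figure D5:**
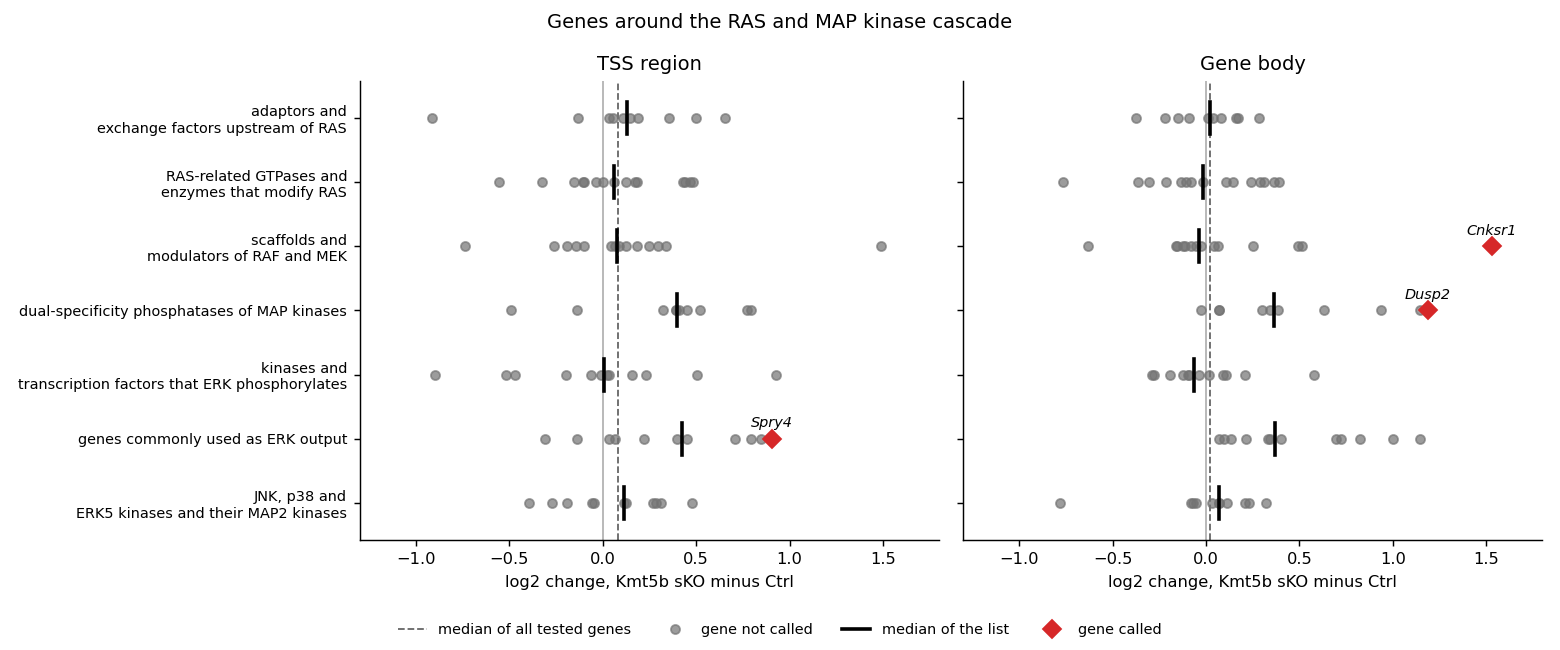
Log2 change between Kmt5b sKO and Ctrl MuSCs of the genes in 7 lists around the cascade, for the TSS region (left) and the gene body (right). Each point is a gene, red diamonds are genes with an adjusted p under 0.1 from limma, black bars are list medians and the dashed line is the median of all tested genes; the ERK readout genes have a median of 0.42 and 0.37, and Spry4, Dusp2 and Cnksr1 are the genes called.

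The genes at the remaining ends of the lists did not pass in limma's fit to all 6 libraries. Ralb passed in the gene body with edgeR and DESeq2, and Ralb, Mapk11 and Map2k3 passed with limma when Ctrl replicate 3 was left out. Among adaptors and exchange factors, gene body log2 changes ran from -0.37 for Gab1 to 0.29 for Shc1 with a median of 0.02, and among RAS-related GTPases and modifying enzymes from -0.77 for Ralb (adjusted p = 0.23 from limma) to 0.39 for Golga7, a subunit of a RAS palmitoyltransferase. The scaffolds had a median of -0.04, with Arrb2 at -0.63 (adjusted p = 0.16 from limma) as the lowest. The kinases and transcription factors that ERK phosphorylates ran from -0.29 for Mknk1 to 0.58 for Mknk2 with a median of -0.07, and the JNK, p38 and ERK5 kinases from -0.78 for Mapk11 (adjusted p = 0.24 from limma) to 0.32 for Map2k3 with a median of 0.07. Among the phosphatases Dusp16 was the lowest with -0.03, and among the ERK readout genes Spred2 with 0.07.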

How the data were processed

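PRO-seq libraries of 3 Ctrl and 3 Kmt5b sKO MuSC samples were used. Per the submitters' processing notes and the study's methods, the authors trimmed reads (Trimmomatic 0.39), aligned them to GRCm38 (STAR 2.6.1d) with 1 random position kept for multi-mapping reads, removed duplicates (Picard 2.18.16) and counted sense reads of 1 listed isoform per gene. The deposited TSS values are headed TPM but, as all regions are 400 nt, equal RPM; the deposited gene body values are TPM. Both are scaled to fixed totals, so a change of total transcription cannot appear. Whole reads were recovered from the size of the step that 1 read makes, for 100% of low values in every library.

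Genes outside X and Y were kept where both region means reached 0.5. With limma 3.58.1 (R 4.3.3), lmFit and eBayes with a trend were run on log2(value + 0.5) with genotype as the term, and the call rule was an adjusted p (Benjamini-Hochberg) below 0.1. Such fold changes understate those of low genes. The pausing index was tested as a log2 ratio without a pseudocount. Araf was read from a fit with X and Y kept. Intervals are limma's 95% intervals, and counting errors cover sampling of reads only. The study describes the libraries as biological replicates. Alternatives used edgeR 4.0.16 and DESeq2 1.42.0 on the recovered reads, other pseudocounts, filters, scalings and left-out libraries. The fits were tested on simulated data. Named genes were the 7 members, neighbours, called list genes, the extremes of each list in the gene body and the 3 genes most like Hras; Dusp6 is the extreme of the ERK readout list. The 7 members and all lists were chosen with earlier results of these data known, and the lists are no independent support. A comparison of protein sequences is not analysed here, and the values of some neighbouring and marker genes are not reported here. Promoter sequences are from RefSeq (GRCm38.p6), with 6 of 7 members matched; exons are from GENCODE M21. Plots used Python 3.11.15, pandas 2.3.3, scipy 1.17.1 and matplotlib 3.10.9.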

Additional observations from a re-analysis of the deposited data

How the results depend on the processing

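None of the 7 genes was called in any measure under any alternative tried, including with a replicate block (0 of 7 in each measure). Several alternatives called no gene outside X and Y, so a count of 0 there does not measure stability. This held for the replicate block (0 of 12451 in either region) and, in the TSS region, without the filter or the variance trend. It also held in the gene body without Ctrl replicate 1 or any Kmt5b sKO library. For the index the most called was 9 of 11698, with recovered reads per nt. The replicate numbers were not treated as pairs in the main fit. The gene body deviations of same-numbered libraries correlated at -0.15, -0.17 and -0.33, and no library correlated best with its own number. Whether same-numbered libraries were prepared together was not tested. Of 280 log2 changes of the 7 genes under an alternative, 262 kept their direction. The count includes alternatives that change only the test. Without the filter or variance trend, with X and Y kept or with the replicate block, each log2 change stayed the same by construction. The TSS region value crossed 0 for Hras (leave-one-out -0.17 to 0.26, and -0.013 with DESeq2), Nras (-0.36 to 0.25) and Map2k1 (-0.12 to 0.15). In the gene body it did so for Nras (-0.045 to 0.11, -0.018 with edgeR and -0.025 with DESeq2), Araf (-0.036 to 0.31), Map2k1 (-0.029 to 0.10) and Map2k2 (-0.19 to 0.39), and in the pausing index for Nras (-0.47 to 0.27), Map2k1 (-0.18 to 0.086) and Map2k2 (-0.036 to 0.59). The genotype difference in the log2 gene body ratio of Map2k1 over Map2k2, -0.11 in all 6 libraries, ran from -0.31 to 0.16 with 1 library left out. In the main fit the largest of these differences were 0.23 for the Map2k2 pausing index and 0.16 for its gene body. The Braf gene body, at -0.11, kept its direction in all 14 alternatives, among them those that could not change it. With 1 library left out it ran from -0.18 to -0.016, the latter without Kmt5b sKO replicate 3. The cause of each reversal was not tested.

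Calls among the pathway list genes changed between alternatives, as did those over all genes. These alternatives were chosen after seeing the data. In the TSS region the 1 called gene became 0 without the filter on low values, with the replicate block and without the variance trend. Over all genes 0 were called in these settings too. At an adjusted p under 0.05 from limma it was 0, where 64 of 12451 genes passed. With 1 library left out it ran from 0 to 4, beside 1 to 408 over all genes. In the gene body the 2 called genes became 1 without the filter, beside 330 of 14068 over all genes. They became 0 with the replicate block (0 of 12451) and 9 with DESeq2 (1295 of 12451). At an adjusted p under 0.05 from limma they were 0, beside 1 of 12451. With 1 library left out they ran from 0 to 12, beside 0 to 836 over all genes. Both maxima were without Ctrl replicate 3. Depth limits the TSS values of Mapk3, Braf and Hras most.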
